A study of Mus musculus with 32 samples.

Results

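The 10 genes described here are components of the Hippo pathway and targets of its transcriptional output in the forebrain (Fb) and midbrain (Mb) of mouse embryos. They were matched by Ensembl identifier among the 48576 identifiers of the deposited tables. The kinase Lats2 and the LIM protein Ajuba belong to the cytoplasmic part of the pathway. Yap1 and Wwtr1 (which encodes TAZ) are its coactivators, Tead1 and Tead2 the DNA-binding partners of these, and Ccn1, Ccn2 (also called Ctgf), Ankrd1 and Amotl2 are widely used target genes.

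Hippo signalling is a kinase cascade in which Mst kinases activate Lats kinases, and Lats kinases phosphorylate Yap and Taz and so keep them out of the nucleus. Without that phosphorylation Yap and Taz enter the nucleus and bind Tead proteins at target genes. Cell density, adherens junctions and tension of the actin cytoskeleton feed into the cascade, and in the neural tube it is known for its part in neuroepithelial growth. Yap activity is set mainly by phosphorylation and location of the protein, which RNA levels do not show.

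The tissue came from B6C3F1 embryos at E9.5 that were wild-type (WT) or lacked type II cadherins, which are adhesion proteins of neuroepithelial cells. TKO_Ex are Cdh6/8/11 triple knockout embryos with exencephaly, a failed closure of the cranial neural tube. In triple knockouts the study reported closure defects that reached beyond the Mb. DKO_Ex are double knockout embryos with exencephaly, labelled Cdh8/11, and DKO_CD are double knockout embryos with a cranial defect, labelled Cdh6/8 but named Cdh8/11 by the study. Each tissue gave 6 WT, 4 TKO_Ex, 3 DKO_Ex and 3 DKO_CD libraries, 32 in all. The knockout alleles descend from 1 founder, the mutants came from intercrosses of triple heterozygotes and WT from WT matings, so the effects of genotype and of parentage cannot be told apart. For 12 files the heading of the column and the record disagree on which DKO group they hold, and the heading was followed. Comparisons of all 10 mutant libraries with WT do not depend on that choice.

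Libraries held an estimated 1.96 to 3.27 M fragments. Those of the TKO_Ex Mb (1.96 to 2.35) lay below those of the WT Mb (2.40 to 2.91), and those of the DKO_Ex Mb (3.07 to 3.27) above them. Among the targeted genes, Cdh6 was at 0.345 to 0.388 FPKM in 3 TKO_Ex Mb libraries and at 3.10 in the library labelled TKO_Ex replicate 3, within the WT range of 1.04 to 3.55. In the Fb that library was also within the WT range (3.74 FPKM). In the Mb of DKO_CD and DKO_Ex, Cdh6 was at 1.29 to 2.11 and 1.86 to 3.12 FPKM, within the WT range in both and above the 3 low TKO_Ex libraries. Cdh8 spanned 1.14 to 10.1 FPKM among WT Mb libraries and 0.851 to 2.49 among mutant ones. Cdh11 spanned 17.9 to 28.7 FPKM in WT, 14.5 to 16.6 in TKO_Ex, 17.6 to 18.7 in DKO_Ex and 16.7 to 27.2 in DKO_CD there. A whole-gene value does not show whether the deleted exon is present. En1, a midbrain factor, was at 19.1 FPKM or more in every Mb library except WT replicate 5 (3.57) and at 2.09 or less in every Fb library. For Ccn2 (TKO_Ex and all mutants) and Amotl2 (all mutants), Mb differences are also given without TKO_Ex replicate 3 and WT Mb replicate 5. Other differences are given with these libraries included.

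Tead proteins bind the motif GGAATG, read as CATTCC on the other strand, and short windows around it are shown for target genes whose levels differ widely and for Wwtr1, which differed between brain regions. The windows come from RefSeq promoters on GRCm38.p6, run 5′ to 3′ along the gene's own strand, and have the motif in capitals.
Ccn1, chr3:145650071-145650100, minus strand: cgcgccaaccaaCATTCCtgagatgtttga
Amotl2, chr9:102717727-102717756, plus strand: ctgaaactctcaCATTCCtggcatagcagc
Ankrd1, distal window, chr19:36120037-36120066, minus strand: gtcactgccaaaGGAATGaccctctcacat
Ankrd1, proximal window, chr19:36119950-36119979, minus strand: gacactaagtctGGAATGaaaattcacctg
Wwtr1, chr3:57576029-57576058, minus strand: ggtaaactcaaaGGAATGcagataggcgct
The Ccn1 and Wwtr1 windows lie outside the gene as annotated in GENCODE M21, and the Amotl2 and Ankrd1 windows overlap an annotated exon of the gene. Promoters were listed for 8 of the 10 members, Ccn2 and Tead1 being the others. In the 250 bases before a start, 6 of these 8 (Ccn1, Ankrd1, Amotl2, Yap1, Wwtr1 and Ajuba) held the motif on either strand, against 14.4% of 27025 genes. The motif was absent from the windows of Tead2 and Lats2, and a match is not evidence of binding.

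The members spanned a wide range of levels. In the WT Mb the mean was 187 FPKM for Tead2, 70.3 for Yap1, 46.3 for Ajuba, 35.9 for Amotl2 and 17.4 for Ccn2, followed by 15.0 for Tead1, 11.6 for Wwtr1, 8.51 for Ccn1 and 6.78 for Lats2. The ranges of neighbours in this order overlapped for Ccn2 and Tead1, for Wwtr1 and Ccn1 and for Ccn1 and Lats2, and did not overlap for the others. Ankrd1, which encodes a cardiac and stretch-responsive repeat protein, was listed at 0 in 31 of 32 libraries and at 0.258 FPKM in DKO_CD Mb replicate 2. It was therefore not tested, and 9 members were. At these depths a single fragment of Ankrd1 is worth about 0.106 to 0.177 FPKM, so lower levels could not be seen. The least abundant of the tested members, Ccn1, Ccn2, Wwtr1 and Lats2, rested on at most 25.4 to 205 fragments per library, so that counting error is part of their spread.

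**Figure D1:**
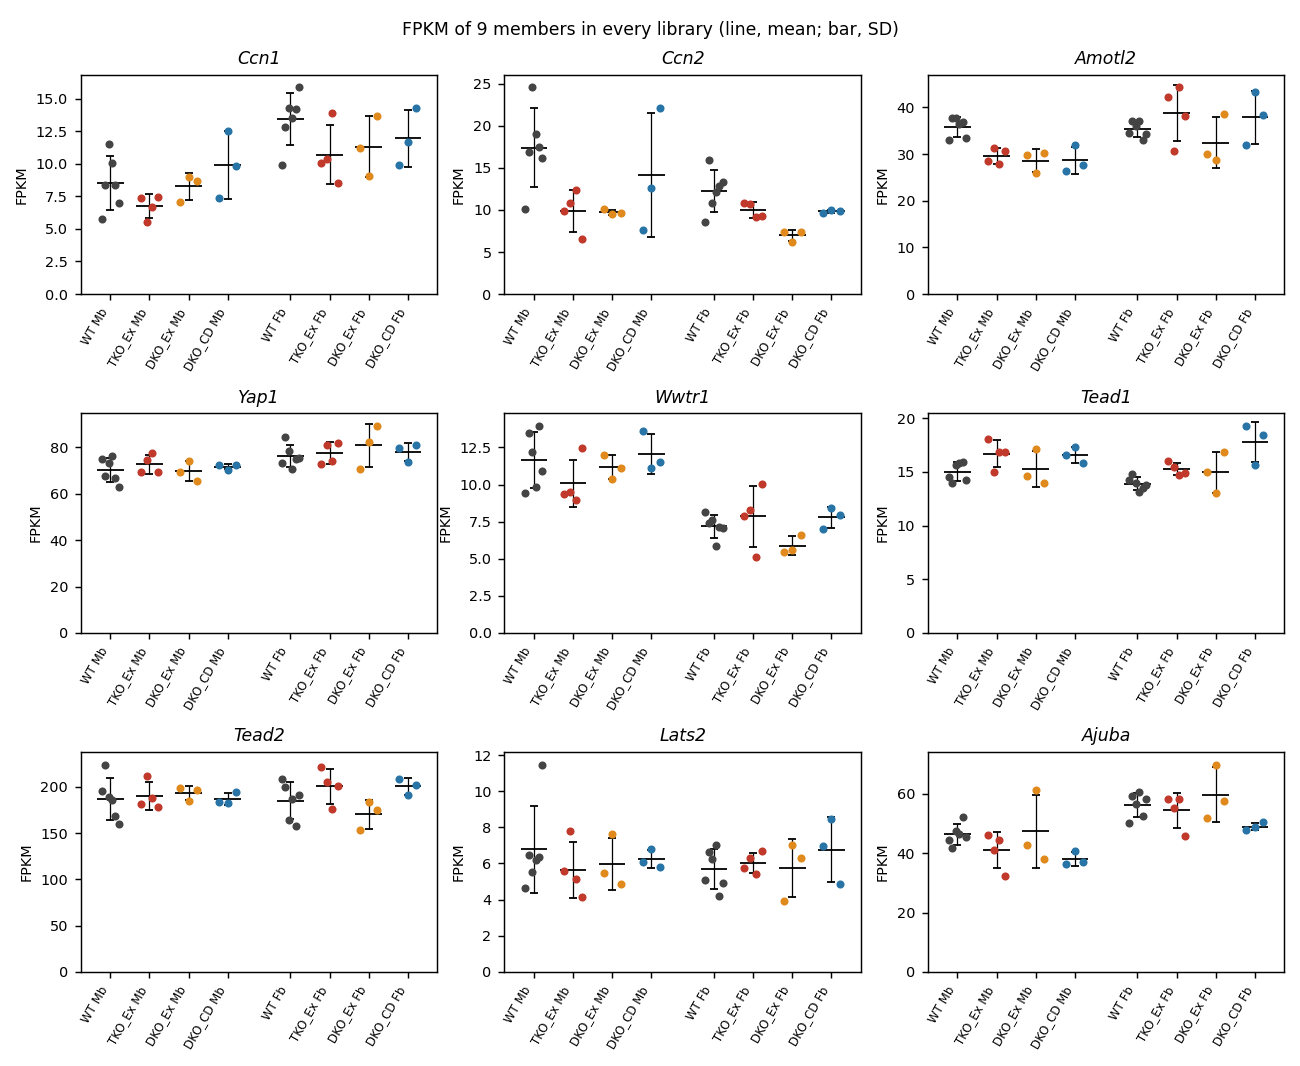
FPKM (vertical axes, from 0) of the 9 tested members in each library, for WT, TKO_Ex, DKO_Ex and DKO_CD in the Mb (left of each panel) and the Fb (right). Points are libraries, lines are means and bars are SD. All mutant Mb libraries lie below all WT Mb libraries for Amotl2, whereas Ccn2 overlaps in TKO_Ex and DKO_CD.

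No member passed the threshold (adjusted p under 0.05, limma on log2(FPKM + 1) with Benjamini-Hochberg adjustment over all genes) in any comparison of a mutant group with WT. In the Mb this held for TKO_Ex, DKO_Ex, DKO_CD and all 10 mutant libraries, where 0.0898%, 0.0903%, 0.0375% and 0.127% of all genes tested were called. The corresponding shares in the Fb were 0.0603%, 0.0759%, 0.0378% and 0.203%. An unadjusted p under 0.05 (limma) was reached by 2 of the 9 members in the Mb of each mutant group. They were Ccn2 and Amotl2 in TKO_Ex and DKO_Ex, and Amotl2 and Ajuba in DKO_CD. Of all genes tested, 1120 of 13361, 726 of 13295 and 893 of 13344 reached that p in TKO_Ex, DKO_Ex and DKO_CD. Over the 10 mutant libraries, 3 members had positive and 6 negative differences in the Mb, with a median of -0.07 beside 0.02 for all genes, and in the Fb 5 were positive and 4 negative, with a median of 0.04 beside 0.02.

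Ccn2, a secreted matricellular protein, had lower means than WT in every mutant group of both tissues. Its WT Mb libraries stood at 10.1, 16.9, 24.6, 19.1, 17.4 and 16.2 FPKM. In TKO_Ex the Mb values were 9.91, 10.8, 12.4 and 6.51, in DKO_Ex 10.1, 9.52 and 9.59, and in DKO_CD 7.64, 12.6 and 22.1. All 7 libraries of exencephalic Mb thus lay below 5 of the 6 WT libraries, WT replicate 1 being the low one, while the 3 DKO_CD libraries spread over most of the WT range. Ccn2 was chosen as a gene already reported lower in exencephalic Mb, with earlier results of these data known. Its values and p-values there describe that difference and are no independent support for it.

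The Mb difference of Ccn2 from WT was -0.74 ± 0.22 on the log2 scale (SE, 4 against 6 libraries, 95% interval -1.23 to -0.26) in TKO_Ex, with an adjusted p = 0.366 in limma. In DKO_Ex it was -0.73 ± 0.21 (interval -1.21 to -0.26, adjusted p = 0.669, limma), and every DKO_Ex library was below every WT library, as was so for 0.993% of genes in that comparison. In DKO_CD it was -0.35 ± 0.31 (interval -1.04 to 0.33, adjusted p = 0.902, limma). Over all 10 mutant libraries the mean was 11.1 against 17.4 FPKM, a difference of -0.62 ± 0.20 (adjusted p = 0.405, limma), and 6 of them were below every WT library. The share of all genes with 6 of 10 below was not computed. Without TKO_Ex replicate 3 and WT replicate 5 the differences were -0.84 in TKO_Ex (adjusted p = 0.559, limma) and -0.64 over all mutants (adjusted p = 0.626, limma). Without WT Mb replicate 1 they were -0.88 in TKO_Ex (adjusted p = 0.0884, limma) and -0.87 in DKO_Ex (adjusted p = 0.0912, limma), the lowest adjusted p of any alternative for these comparisons. Under the grouping by record, the values of DKO_Ex and DKO_CD change places.

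In the Fb Ccn2 was at 8.58, 15.9, 10.8, 12.2, 12.8 and 13.3 FPKM in WT. It was at 10.9, 10.7, 9.13 and 9.29 in TKO_Ex, at 7.39, 6.18 and 7.35 in DKO_Ex, and at 9.65, 10.02 and 9.91 in DKO_CD. DKO_Ex was again below every WT library, as were 2.25% of genes in that comparison, and the other mutant libraries lay within the WT range. The Fb difference was -0.72 ± 0.17 in DKO_Ex (interval -1.09 to -0.34, adjusted p = 0.284, limma) and -0.40 ± 0.13 over all mutants (adjusted p = 0.342, limma). Subtracting the Fb effect from the Mb effect left -0.49 ± 0.28 in TKO_Ex (interval -1.07 to 0.08), -0.02 ± 0.28 in DKO_Ex (-0.61 to 0.57) and -0.09 ± 0.37 in DKO_CD (-0.86 to 0.69). A larger effect on Ccn2 in the Mb than in the Fb was not shown for any group.

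Amotl2, an angiomotin family protein that binds Yap at junctions and is itself a Yap target, had the lowest adjusted p of the members over all mutant Mb libraries. Its WT Mb libraries stood at 33.0, 37.7, 37.8, 36.4, 37.0 and 33.4 FPKM. In the mutant Mb it was at 28.5, 31.4, 27.9 and 30.8 in TKO_Ex, at 29.9, 25.9 and 30.2 in DKO_Ex, and at 26.4, 31.9 and 27.6 in DKO_CD. Each of the 10 mutant libraries was below each of the 6 WT libraries, the highest mutant being at 31.9 and the lowest WT at 33.0. Of all genes tested 0.0374%, 5 of 13363, were arranged that way, the others, named after their values were seen, being Ciapin1, Gsta4, Gm15710 and Gm12663. Ciapin1 lies on chromosome 8, which carries Cdh8 and Cdh11, and Gsta4 on chromosome 9, as does Amotl2. Gm15710 and Gm12663 lie on chromosomes 5 and 11. The part of shared parentage in this arrangement was not tested.

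The Amotl2 difference over all mutants was -0.30 ± 0.06 (SE, 10 against 6 libraries, interval -0.43 to -0.17), a ratio of 0.814 on that scale. It did not pass (adjusted p = 0.0828, limma). With median-of-ratios scaling it was -0.32 and passed (adjusted p = 0.0489, limma), and without TKO_Ex replicate 3 and WT replicate 5 it was -0.28 (adjusted p = 0.267, limma). The adjusted p ranged from 0.0489 to 0.392 over 24 alternatives. The upper end came from a block that joined WT and mutant libraries of the same number, although these came from separate matings. By group the difference was -0.27 ± 0.08 in TKO_Ex, -0.32 ± 0.09 in DKO_Ex and -0.32 ± 0.10 in DKO_CD. The value of DKO_CD, labelled with a cranial defect, was as far below WT as those of the exencephalic groups, and differences between mutant groups were not tested. In TKO_Ex, 0.524% of genes were below every WT library, in DKO_CD 1.14%.

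In the Fb, Amotl2 showed no common direction. WT libraries were at 34.6, 37.1, 36.0, 37.0, 33.0 and 34.4 FPKM, TKO_Ex at 42.2, 30.6, 44.4 and 38.1, DKO_Ex at 30.0, 28.8 and 38.7, and DKO_CD at 31.9, 43.3 and 38.4. Of the 10 mutant libraries 6 were above and 4 below all WT libraries, which spanned only 33.0 to 37.1, and the difference over all mutants was 0.04 ± 0.10 (interval -0.17 to 0.24). The Mb effect minus the Fb effect was -0.33 ± 0.11 (adjusted p = 0.859, limma) and did not pass. No gene was called in that comparison (0%), nor in the one for DKO_Ex (0%), with 673 and 518 genes at an unadjusted p under 0.05. For TKO_Ex 0.0149% and for DKO_CD 0.00746% of genes were called, and no member was among them.

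**Figure D2:**
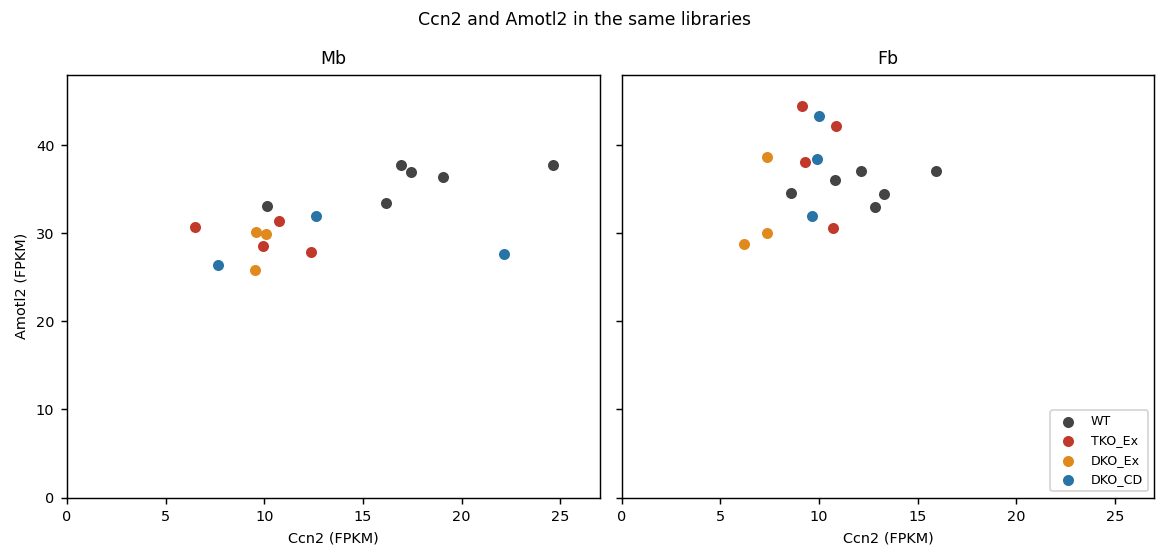
Amotl2 against Ccn2 (both in FPKM, axes from 0) in the Mb (left) and the Fb (right), 1 point per library, coloured by group. In the Mb all mutants lie below 33.0 FPKM of Amotl2, while on the Ccn2 axis WT replicate 1 (10.1) and DKO_CD replicate 3 (22.1) lie among the other group.

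Ccn1 (also called Cyr61), the closest relative of Ccn2 among the members, did not follow it in the Mb. WT libraries were at 5.73, 8.41, 11.6, 10.02, 8.37 and 6.96 FPKM. TKO_Ex was at 7.35, 5.5, 6.72 and 7.46, DKO_Ex at 7.08, 8.99 and 8.71, and DKO_CD at 7.34, 12.5 and 9.82. Nearly all mutant libraries lay within the WT range, with 1 above and 1 below it. The differences were -0.27 ± 0.17, -0.01 ± 0.19 and 0.20 ± 0.22 in TKO_Ex, DKO_Ex and DKO_CD, and -0.05 ± 0.15 over all mutants, with an interval of -0.37 to 0.27. In the Fb the difference over all mutants was -0.24 ± 0.12 (adjusted p = 0.578, limma), and 2 of 10 mutant libraries were below every WT library. Of the target genes named at the start, Ccn2 and Amotl2 had a negative difference in the Mb of every mutant group. Ccn1 had both signs and Ankrd1 was not measurable. Lats2, which a 22-gene signature of Yap and Taz targets includes, also had negative differences there, each within its SE. Of the 15 tested signature targets outside the members, 8 were positive and 7 negative in the Mb of each mutant group.

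Over all mutants, Yap1, Tead2 and Wwtr1 differed from WT by between -0.07 and 0.05 in either tissue. Yap1 ranged from 63.1 to 76.3 FPKM in the WT Mb (median 70.4) and from 65.5 to 77.6 in the mutant Mb (median 71.4). Its difference was 0.03 ± 0.05 over all mutants, with an interval from -0.09 to 0.14, the narrowest of the members. Tead2 ranged from 159.5 to 224 FPKM in the WT Mb and from 178 to 212 in the mutant Mb, all within the WT range, with a difference of 0.03 ± 0.07. Wwtr1 ranged from 9.41 to 13.96 FPKM in the WT Mb and from 8.99 to 13.6 in the mutant Mb, a difference of -0.07 ± 0.10. In the Fb the differences over all mutants were 0.05 ± 0.06 for Yap1, 0.05 ± 0.08 for Tead2 and -0.01 ± 0.13 for Wwtr1. In DKO_Ex alone Wwtr1 differed by -0.25 ± 0.13 in the Fb (interval -0.54 to 0.04).

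Tead1 was the member with the most mutant libraries above WT. In the Fb, WT libraries were at 14.3, 14.8, 13.99, 13.1, 13.5 and 13.8 FPKM, TKO_Ex at 16.0, 15.5, 14.7 and 14.9, DKO_Ex at 15.0, 13.04 and 16.8, and DKO_CD at 19.3, 15.6 and 18.4. Of the 10 mutant libraries 8 were above every WT library, including all 3 of DKO_CD. Among all genes, 2.92% had the 3 DKO_CD libraries above every WT library, and the share with 8 of 10 above was not computed. The difference was 0.33 ± 0.10 in DKO_CD (adjusted p = 0.417, limma) and 0.18 ± 0.08 over all mutants (adjusted p = 0.508, limma). Under the grouping by record the DKO_CD value was 0.09. In the DKO_CD Fb 8 of 8 neuroepithelial and 7 of 7 tested surface ectoderm markers also had positive differences (medians 0.32 and 0.43), and their part in the Tead1 difference was not tested. In the Mb 6 of 10 mutant libraries were above every WT library, and the Tead1 difference was 0.10 ± 0.07 (interval -0.04 to 0.24). The share of all genes with 6 of 10 above was not computed either.

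Ajuba, which binds Lats kinases at adherens junctions and restrains them, was at 44.4, 41.8, 47.4, 46.6, 52.2 and 45.5 FPKM in the 6 WT Mb libraries. It was at 46.1, 41.2, 44.5 and 32.3 in TKO_Ex, at 42.7, 61.4 and 38.0 in DKO_Ex, and at 36.2, 40.7 and 37.1 in DKO_CD. DKO_CD lay below every WT library, as did 1.14% of genes in that comparison, with a difference of -0.28 ± 0.09 (adjusted p = 0.609, limma), while DKO_Ex straddled the WT range. In the Fb DKO_CD differed by -0.19 ± 0.08 (adjusted p = 0.571, limma). Under the grouping by record the DKO_CD differences of Ajuba were 0.01 in the Mb and 0.08 in the Fb. In the DKO_CD Mb 9 of 9 cranial mesenchyme markers had positive differences (median 0.62), and their part in the Ajuba difference was not tested. Lats2 ranged from 4.66 to 11.5 FPKM in the WT Mb and from 4.13 to 7.80 in the mutant Mb, and differed by -0.14 ± 0.15 in the Mb and 0.10 ± 0.13 in the Fb over all mutants.

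**Figure D3:**
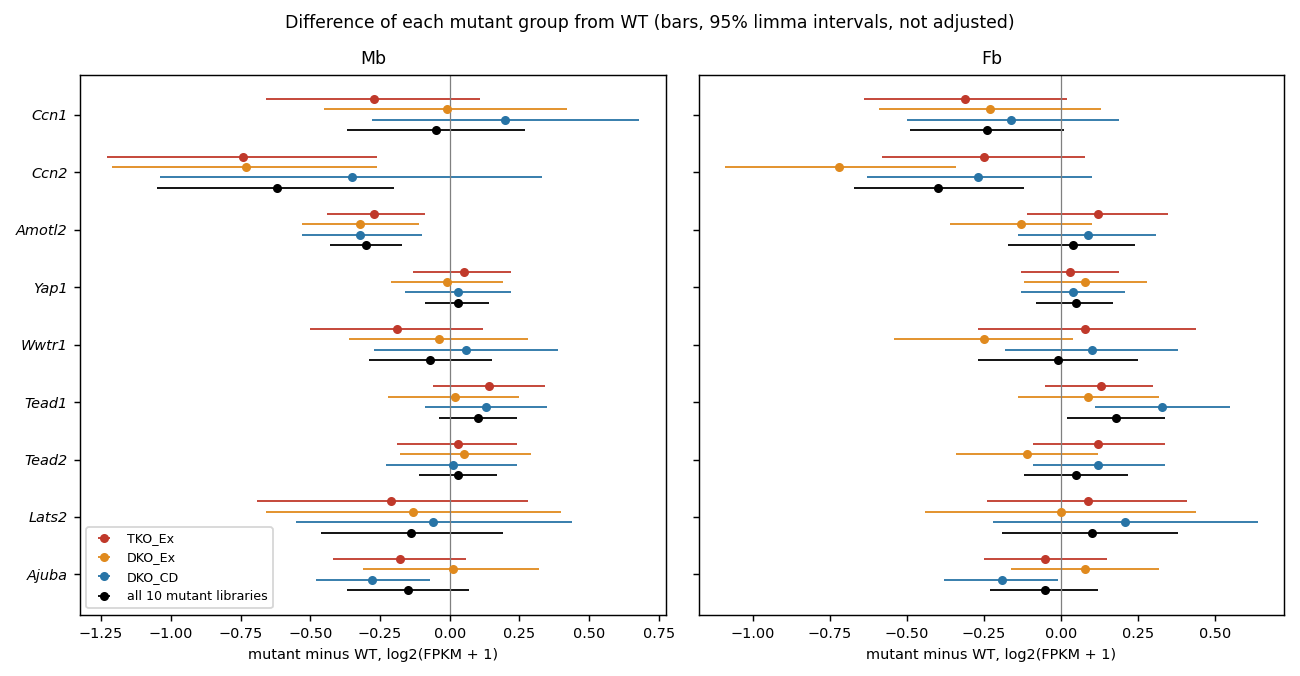
Difference of TKO_Ex, DKO_Ex, DKO_CD and all 10 mutant libraries from WT on the log2(FPKM + 1) scale (horizontal axis) for the 9 tested members, in the Mb (left) and the Fb (right). Points are limma estimates and bars their unadjusted 95% intervals. The intervals of Amotl2 lie below 0 in the Mb for every group and include 0 in the Fb, and those of Yap1 and Tead2 include 0 throughout.

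The pathway genes outside the members were described from 3 lists. None of their genes was called in a comparison of mutants with WT in either tissue. Over all mutant Mb libraries, the kinase cascade and its upstream regulators had positive differences for 10 of 17 tested genes and negative ones for 7 (median 0.04), and the cofactors, Tead partners and cytoplasmic binders for 5 and 3 of 8 (median 0.05). The target genes of a 22-gene Yap and Taz signature that are not members had 10 positive and 5 negative differences among 15 tested (median 0.05), beside 7435 positive differences and a median of 0.02 over all 13363 genes. In TKO_Ex, DKO_Ex and DKO_CD taken singly, 8 of the 15 were positive and 7 negative in each Mb comparison, with medians of 0.05, 0.11 and 0.00.

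In the TKO_Ex Mb the extremes of these lists were small or variable. Among signature targets Axl, a receptor tyrosine kinase, differed by -0.45 ± 0.30, Nuak2, a kinase of the actomyosin cytoskeleton, by -0.38 ± 0.18, Rbms3 by 0.46 ± 0.40 and Ccdc80 by 0.40 ± 0.37. Among cofactors and binders the LIM proteins Wtip and Limd1, relatives of Ajuba, differed by -0.41 ± 0.19 and -0.25 ± 0.10, and Tead4 and Tead3 by 0.33 ± 0.29 and 0.08 ± 0.18. Among kinases and upstream regulators Frmd6 and Mob1b differed by -0.19 ± 0.12 and -0.13 ± 0.16, and Taok3 and Wwc1 by 0.58 ± 0.29 and 0.28 ± 0.24. Their adjusted p in limma ran from 0.556 (Limd1) to 0.942 (Tead3).

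**Figure D4:**
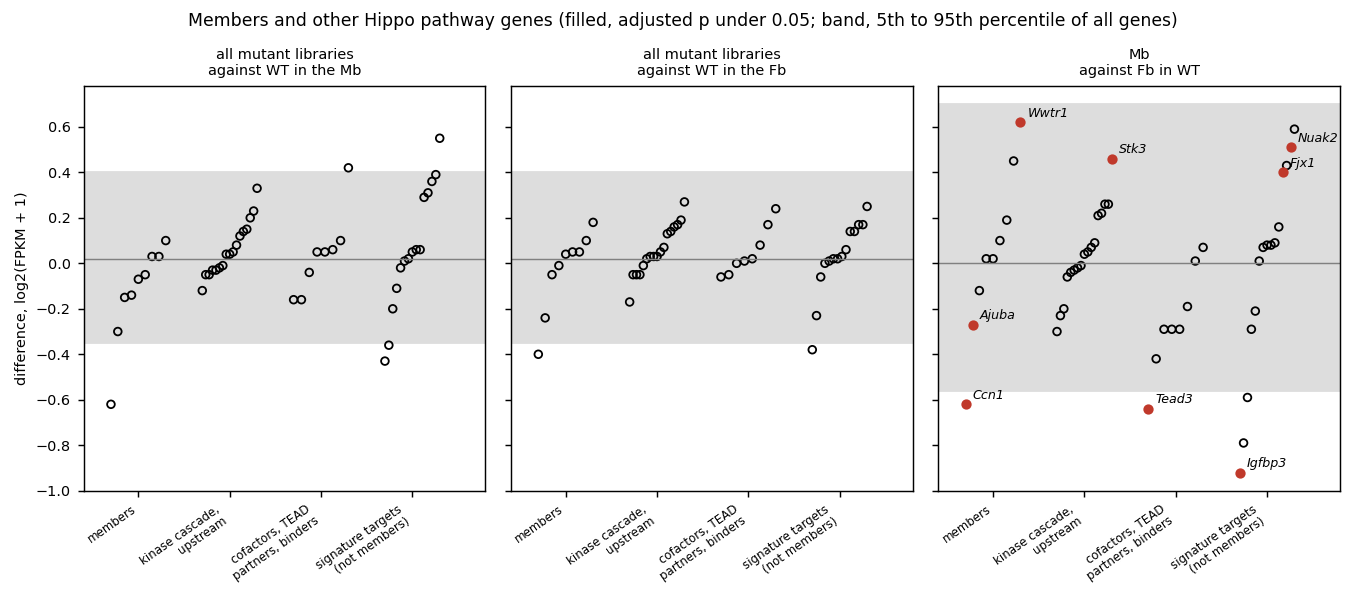
Differences on the log2(FPKM + 1) scale for the members and 3 lists of other pathway genes, for all mutants against WT in the Mb (left) and the Fb (middle) and for the Mb against the Fb in WT (right). Each point is a gene, filled where the adjusted p was under 0.05, the band spans the 5th to 95th percentile of all genes and the line is their median. Filled points occur in the right panel alone, where Wwtr1, Ccn1, Ajuba, Stk3, Tead3, Igfbp3, Nuak2 and Fjx1 were called.

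Calls among the members came from the comparison of brain regions in WT embryos. Of the 9 tested, 3 were called between the Mb and the Fb, where 8.26% of all genes were called. Wwtr1 was higher in the Mb, and Ccn1 and Ajuba were lower there.

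Wwtr1 was at 9.41, 13.5, 12.2, 9.81, 13.96 and 10.9 FPKM in the 6 WT Mb libraries. In the WT Fb it was at 8.15, 7.40, 7.59, 5.83, 7.17 and 7.08. The groups did not overlap, as was the case in that direction for 3.36% of genes. The difference was 0.62 ± 0.11 (interval 0.37 to 0.86, adjusted p = 0.00369, limma), a ratio of 1.53 on that scale, and it passed under all 20 alternatives.

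Ccn1 was at 9.92, 12.8, 14.3, 13.5, 14.2 and 15.9 FPKM in the WT Fb, and 2 of the 6 Mb libraries overlapped with the lowest of these. It was lower in the Mb by -0.62 ± 0.15 (adjusted p = 0.0222, limma), and the call was lost without WT Mb replicate 6 (adjusted p = 0.0509, limma), WT Fb replicate 3 (0.0506) or WT Fb replicate 6 (0.0545). Ajuba was at 50.04, 59.3, 56.6, 60.5, 52.4 and 58.3 FPKM in the WT Fb and lower in the Mb by -0.27 ± 0.07 (adjusted p = 0.0324, limma), a call that 8 of 20 alternatives kept. It was lost with all groups in 1 fit (adjusted p = 0.0826, limma), with no mean-variance trend (0.0583) and with the replicate block (0.0893). It was also lost without WT Mb replicate 1, 2, 3, 4 or 6 or WT Fb replicate 2, 3, 4 or 6 (adjusted p up to 0.0754, limma).

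Ccn2 had the opposite sign to Ccn1 between the regions. It was higher in the Mb by 0.45 ± 0.18 (17.4 against 12.3 FPKM, interval 0.06 to 0.84), which did not pass (adjusted p = 0.171, limma) except without WT Mb replicate 1 (0.59, adjusted p = 0.0260, limma). Yap1, Tead1, Tead2, Amotl2 and Lats2 differed by between -0.12 and 0.19 and did not pass.

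Other pathway genes also differed between the regions in WT. Stk3, which encodes the Hippo kinase Mst2, was higher in the Mb (10.7 ± 1.69 against 7.48 ± 0.957 FPKM, SD, n = 6, difference 0.46 ± 0.12), and Tead3 was lower (6.59 ± 1.47 against 10.8 ± 1.64, difference -0.64 ± 0.14). Among signature targets Igfbp3, an insulin-like growth factor binding protein, was lower in the Mb (6.83 ± 1.57 against 13.6 ± 1.075, difference -0.92 ± 0.13), and Nuak2 (19.6 ± 2.15 against 13.4 ± 1.21) and Fjx1 (14.4 ± 1.93 against 10.6 ± 1.15) were higher. The calls of Stk3 and Fjx1 were kept under 14 and 9 of 20 alternatives. In all, 1 of 17, 1 of 8 and 3 of 15 tested genes of the lists were called. Differences of the signature's targets had both signs, 10 positive and 5 negative, with a median of 0.08, beside 6593 positive and 6751 negative over all genes.

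Markers of other cell types were described in the same comparisons. Over all mutant Mb libraries, 9 of 9 cranial mesenchyme markers and 4 of 4 tested surface ectoderm markers had positive differences (medians 0.29 and 0.27), and 6 of 6 markers of primitive red cells negative ones (median -0.16), with none called. The groups were unlike in this. Mesenchyme medians were 0.18 in TKO_Ex, 0.15 in DKO_Ex and 0.62 in DKO_CD, where 6 of 9 had an unadjusted p under 0.05. Surface ectoderm medians were 0.09, 0.16 and 0.55 in the same order, red cell medians 0.27, -0.67 and -0.23, and neural crest medians -0.07, -0.24 and 0.25. The summed mesenchyme markers came to 122 to 237 FPKM in the WT Mb, 157 to 207 in TKO_Ex, 162 to 226 in DKO_Ex and 208 to 308 in DKO_CD, none of them at 0 throughout a group. Over all mutants the medians of endothelial, neural crest and neuroepithelial markers were -0.02, 0.02 and 0.01. In the mutant Fb 9 of 9 mesenchyme markers had negative differences (median -0.36) and 7 of 7 tested surface ectoderm markers positive ones (median 0.37). Between the WT Mb and Fb, 6 of 9 mesenchyme and 5 of 5 surface ectoderm markers were called, 1 and 0 of them higher in the Mb. The part of these cell types in the members' differences was not tested. In bulk tissue, fewer cells of a type and less RNA per cell cannot be told apart.

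As a description across all 32 libraries, which share 2 tissues and 4 groups, the gene with the closest pattern to Ccn2 among 13441 was BC049715 (Pearson r = 0.68 of log2(FPKM + 1)). Aqp3 (0.64), Acadvl (0.63), E030037K01Rik (0.61) and Coq10a (0.61) came next. Of the members Wwtr1 was nearest to Ccn2 (0.38), and Lats2 (0.20), Amotl2 (0.19), Ccn1 (0.09) and Tead2 (0.08) were further away, with Tead1 (-0.08), Ajuba (-0.10) and Yap1 (-0.25) on the other side of 0. None of these 5 genes is on the lists of pathway genes and targets described above.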

How the data were processed

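RNA of Fb and Mb tissue was sequenced from directional libraries. The authors used TopHat2 for alignment (GRCm38), and Cufflinks gave the FPKM they deposited, so values are already scaled to gene length and library size. Versions are not given in the sources used here, and the authors' HTSeq counts and DESeq2 tests were not used here. The files name no totals. Depth was read from the FPKM worth of 1 fragment, using 771 long genes (minimum 4000 bp) with 1 transcript, of whose low values 88.0% to 96.1% lay within 0.12 of a whole multiple. FPKM of 65 repeated identifiers were summed.

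The tests used limma 3.58.1 (R 4.3.3) and values of log2(FPKM + 1), with the trend option of eBayes, for genes averaging 1 FPKM or more in the libraries compared. Fold changes on this scale understate those of low genes. Calls needed a Benjamini-Hochberg adjusted p under 0.05 over all genes, in 13 comparisons. The model was tested on simulated data. Whether same-group libraries come from separate embryos is not stated for each, so p-values measure the spread between these samples.

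Members and lists were chosen with earlier results of these data known. All members are named, with every called list gene, the 2 highest and 2 lowest differences of each list in the TKO_Ex Mb, and the 5 genes most correlated with Ccn2. Same-numbered Fb and Mb libraries of WT correlated by 0.0265 to 0.0939 and were not treated as pairs. Positions and exons are from GENCODE M21.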

Additional observations from a re-analysis of the deposited data

Results flagged for a closer look

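Of 36 groups of 4 or 6 libraries examined for the 9 tested members, 2 held a library far from the others, and chance alone gives about 1 in 20. Lats2 was at 11.5 FPKM in WT Mb replicate 6, and the next highest WT Mb library was at 6.48, a gap of 0.733 of the group's range. Wwtr1 was at 12.5 FPKM in TKO_Ex Mb replicate 4, and the next was at 9.496, a gap of 0.855 of the range.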

How the results depend on the processing

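The number of members called stayed at 0 for each mutant group under every alternative, in the Mb, in the Fb and for the difference between them. Over all mutant libraries in the Mb it became 1 (Amotl2) with median-of-ratios scaling. For the WT Mb against the WT Fb, leaving out 1 library gave 1 to 3 members, 1 being reached without WT Mb replicate 6, WT Fb replicate 3 or WT Fb replicate 6. Of 2584 values of single genes under alternatives, 2548 kept their side of the threshold without a change of sign, which was counted only where both values exceeded their SE. All 32 lost calls fell in the WT Mb against the Fb, the only comparison in which members or listed pathway genes were called. Elsewhere these genes were uncalled from the start, so the total says little about how stable the calls were. With the DKO files grouped by record, the values of DKO_Ex and DKO_CD change places for every gene. Ajuba in the DKO_CD Mb then differed by 0.01 and Tead1 in the DKO_CD Fb by 0.09. Tead2 in the Fb changed sign, to 0.12 in DKO_Ex and -0.11 in DKO_CD.

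The labels do not say whether same-numbered Fb and Mb libraries share an embryo. Their correlations ran from 0.00756 to 0.1403. Only those of TKO_Ex replicate 4, DKO_Ex replicates 1 and 2 and DKO_CD replicate 1 exceeded 0.1, so the numbers were not used as pairs. However, 13 of 16 Mb libraries matched the Fb library of their own number best, more than random numbering within groups would give. Whether the numbers pair the samples is undecided, and the SE of differences between regions ignore a possible pairing. With the replicate block, 2 members (Wwtr1 and Ccn1) were called between the WT Mb and Fb. The calls of Ajuba, Stk3 and Fjx1 were lost (adjusted p = 0.0893, 0.0888 and 0.0746, limma). In comparisons of mutants with WT within a tissue, the block joined WT and mutant libraries of the same number, and 0 members were called. Those libraries came from separate matings and correlated by -0.0863 to 0.0487, so this setting is no check of pairing. When 1 library was left out, Stk3 was still called in 7 and Fjx1 in 3 of 12 cases, and the adjusted p was at most 0.0645 and 0.0813 (limma). The block changed no other call of a named gene. Without counts, precision is limited for the least abundant members, Ccn1, Ccn2, Wwtr1 and Lats2.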
